A study of Arabidopsis thaliana with 48 samples.

Results

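Day 2 was compared with day 1 of floral induction in inflorescences of Arabidopsis thaliana, in 8 of the 24 samples of a time course, 4 biological replicates on each of the 2 days. Both days share 1 genotype: plants in the Col-0 background that carry pAP1:AP1-GR and are ap1 cal mutants, so the transgenic AP1 protein is joined to a glucocorticoid receptor domain and driven by its own promoter. All plants were drenched with 2 µM DEX (dexamethasone, the steroid that lets the fusion protein act) in 0.01% ethanol and 0.01% Silwet L-77, first at 8 h after lights on and then daily at 4 h after lights on. Day 2 therefore differs from day 1 in time since induction and in the number of DEX applications. The hour of the last application and the time since it may also differ, and these cannot be told apart. The labels do not give the hour at which tissue was taken. Each sample was sequenced in 2 batches whose counts were summed. The sources used here hold no time course without DEX, and the material was whole inflorescence tissue.

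In ap1 cal plants the shoot tips keep making meristems in place of flowers and form a cauliflower-like mass. When AP1, a MADS domain transcription factor, becomes active, these meristems start flower development nearly in step. Genes of inflorescence identity are then turned down, and organ identity genes, which specify sepals, petals, stamens and carpels in combination, are turned on. Around these stages the flanks of the young flower also set up organ boundaries and upper and lower sides of the organs.

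The 8 samples held 26.69 to 27.92 M counts, and 19747 genes were tested. Inflorescence markers were high in every sample: LFY lay at 106 to 120 CPM (counts scaled to library size) at day 2 and 87.1 to 106 CPM at day 1, STM at 129 to 139 CPM at day 2 and 139 to 163 CPM at day 1, and PDF1 at 1430 to 1740 CPM at day 2 and 1190 to 1280 CPM at day 1. Mature pollen genes were low, with a sum over 10 genes of 13.6 to 18.7 CPM at day 2 and 16.7 to 19.2 CPM at day 1. A list of 17 tapetum and later anther genes stood apart in 1 sample of each day, with sums of 39.4, 44.8, 54.3 and 101 CPM in replicates 1 to 4 of day 2 and of 37.2, 39.5, 95.1 and 45.9 CPM in those of day 1. None of the 17 was at 0 in day 2 replicate 4 or in day 1 replicate 3, while 4 to 6 were at 0 in the other day 2 samples and 6 to 11 in the other day 1 samples. In whole tissue, a change in the number of cells of a type and a change in RNA per cell cannot be told apart.

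At day 2, 376 of the 19747 genes (1.9%) differed from day 1 in edgeR's quasi-likelihood test at an adjusted p under 0.05. They comprised 294 rises (1.49%) and 82 falls (0.415%). The rises were the larger changes, with a median log2 fold change of 0.94 against -0.47 for the falls, and 134 rises (0.679%) but 13 falls (0.0658%) reached 2-fold. Over all tested genes the median log2 fold change was -0.01. Of the 294 rises, 160 had their highest mean of the 6 days at day 5 and 48 at day 2, and 238 had their lowest mean at day 0. Of the 82 falls, 68 had their highest mean at day 0. By the call itself a rise could not be highest at day 1 or lowest at day 2, nor a fall highest at day 2. These shares were not counted over all tested genes. The samples of the days did not overlap for 1902 genes (9.63%), among them 364 of the 376. Rises made up 78.2% of the calls, against 66.7% when samples were scaled by library totals (250 rises and 125 falls). With the runs of sequencing batch 1 alone there were 193 rises and 47 falls, and with those of batch 2 alone 243 rises and 65 falls. The counts also depend on single samples: leaving out day 1 replicate 1, 2, 3 or 4 left 158, 155, 235 or 189 rises and 23, 26, 44 or 34 falls, and leaving out day 2 replicate 1, 2, 3 or 4 left 170, 207, 326 or 221 rises and 44, 42, 76 or 35 falls. Values below are CPM of replicates 1 to 4 in that order, with SD over n = 4 samples a day, and all p-values are edgeR's, adjusted over all tested genes.

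Floral organ identity genes rose at day 2. Of 23 tested members of the organ identity and patterning list 10 rose and none fell, with a median log2 fold change of 0.27 over the list, and between 8 and 10 rose when each of the 8 samples was left out in turn. Rises made up 1.49% of all tested genes, and the list was chosen with earlier results of these samples known, so its count is a description. AP3 (AT3G54340, chr3:20119140-20121314), which with PI specifies petals and stamens, had 138, 134, 131 and 129 CPM at day 2, against 62.8, 65.2, 71.5 and 74 CPM at day 1. Every day 2 sample lay far above every day 1 sample, and the log2 fold change was 0.96 (SE 0.12, adjusted p = 4.85e-05). PI (AT5G20240) had 130, 131, 119 and 138 CPM at day 2, against 84.7, 91.6, 97.9 and 104 CPM at day 1. The groups did not overlap, but the change was smaller, 0.45 (SE 0.11, adjusted p = 0.0269). AG (AT4G18960, chr4:10382856-10388539), required for stamens and carpels, had 21.4, 24.3, 22.4 and 27.1 CPM at day 2, against 9.48, 9.56, 12.4 and 15.3 CPM at day 1. The fold was 2.03 (log2 1.02, SE 0.16, adjusted p = 0.000578), and day 1 replicates 3 and 4 were the higher samples of their day.

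The SEPALLATA genes encode the MADS partners that the organ identity proteins need. SEP3 (AT1G24260, chr1:8593536-8596123) had 56.1, 51.5, 46.5 and 51.8 CPM at day 2, against 22.5, 23.8, 29.9 and 31.4 CPM at day 1, a log2 fold change of 0.94 (SE 0.12, adjusted p = 7.51e-05). SEP2 (AT3G02310) had 95.8, 105, 104 and 120 CPM at day 2, against 58.7, 63.6, 61.2 and 78.1 CPM at day 1, a change of 0.7 (SE 0.1, adjusted p = 0.000216). SEP1 (AT5G15800) had 36.4, 40.6, 38.5 and 42 CPM at day 2, against 28.4, 30.2, 28.6 and 33.8 CPM at day 1, a change of 0.38 (SE 0.09, adjusted p = 0.0365). All 3 were higher in every day 2 sample, and replicate 4 was the highest sample of SEP1 and SEP2 on both days. The call of PI was lost without day 2 replicate 1, 2 or 4 or day 1 replicate 1 or 2 (adjusted p 0.0578 to 0.0983), and that of SEP1 without day 2 replicate 2, 3 or 4 or day 1 replicate 1, 2 or 3 (0.052 to 0.11) and under library totals. The calls of AP3, AG, SEP2 and SEP3 held without any single sample.

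The zinc finger genes of the floral whorls had the largest folds among the organ patterning genes, at low levels. RBE (AT5G06070, chr5:1828150-1829186), a repressor needed for petal formation, had 2.8, 2.18, 2.37 and 2.2 CPM at day 2, against 0.521, 0.785, 0.396 and 0.58 CPM at day 1. SUP (AT3G23130, chr3:8242256-8243372), which marks the border between stamens and carpels, had 2.26, 2.00, 2.08 and 1.7 CPM at day 2, against 0.66, 0.499, 0.36 and 0.689 CPM at day 1. The days did not overlap for either gene, and the log2 fold changes were 2.05 (SE 0.21, adjusted p = 3.27e-06) for RBE and 1.86 (SE 0.26, adjusted p = 0.000223) for SUP. JAG (AT1G68480), which promotes outgrowth of the floral organs, had 8.55, 7.9, 7.79 and 8.15 CPM at day 2, against 3.65, 4.99, 4.21 and 4.5 CPM at day 1, a change of 0.9 (SE 0.15, adjusted p = 0.00164). Its close relative NUB, named here after its values were seen since it completes the count, averaged 4.1 ± 0.28 CPM at day 2 and 2.08 ± 0.096 CPM at day 1 and rose by 0.97 (SE 0.18, adjusted p = 0.00364). Over the 27 core floral genes, which overlap this list and the list of floral transition, 9 rose and 4 fell (all genes: 1.49% rises and 0.415% falls). A zinc finger gene of the organ identity list, KNU, was too low to test, with 5 counts in all at day 2 and 6 at day 1.

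**Figure D1:**
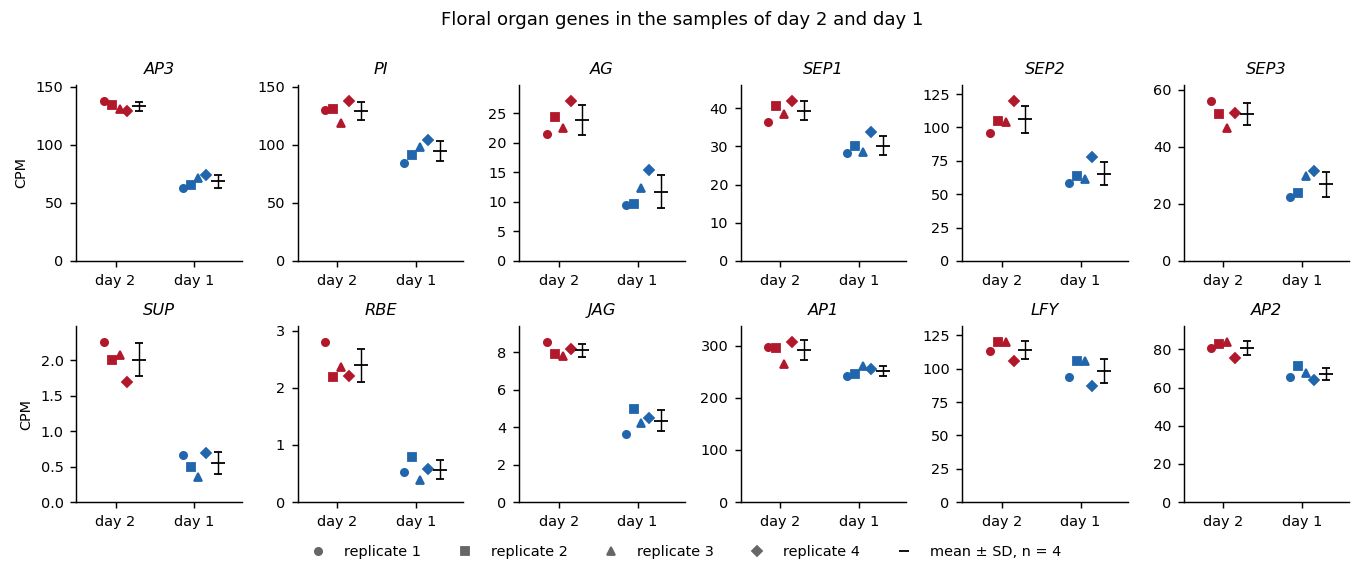
CPM of 12 floral genes in each sample of day 2 (red, left) and day 1 (blue, right); marker shapes are replicates and black bars are mean ± SD (n = 4). The first 9 genes lie higher at day 2 with no overlap between the days, from RBE (log2 fold change 2.05) to SEP1 (0.38), while AP1, LFY and AP2 shift by 0.21 to 0.27 and were not called.

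The upstream floral identity genes moved less. AP1 (AT1G69120) had 297, 296, 264 and 307 CPM at day 2, against 241, 246, 261 and 256 CPM at day 1 (log2 0.21, SE 0.08, adjusted p = 0.195). The reads of the transgene and of the mutated endogenous gene are counted together. LFY (AT5G61850), the meristem identity factor, averaged 114 ± 6.8 CPM at day 2 and 98.1 ± 9.1 CPM at day 1 (0.22, adjusted p = 0.303). AP2 (AT4G36920), which specifies the outer whorls, averaged 80.7 ± 3.8 CPM at day 2 and 67.0 ± 3.2 CPM at day 1 (0.27, adjusted p = 0.133). UFO, an F-box partner of LFY, had a change of 0.21 (adjusted p = 0.562). CAL (AT1G26310), the mutated relative of AP1, averaged 13.2 ± 0.7 CPM at day 2 and 16.3 ± 1.4 CPM at day 1 (-0.3, adjusted p = 0.2). For AP1, LFY, AP2 and CAL the days did not overlap, but the adjusted p missed the threshold.

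Later floral genes were low and uneven between samples. CRC (AT1G69180), a carpel and nectary gene, had 5.71, 4.53, 6.71 and 13.4 CPM at day 2, against 2.05, 3.78, 6.47 and 10.1 CPM at day 1 (0.44, SE 0.4, adjusted p = 0.714). SPL (AT4G27330), which starts sporogenous cells in anthers and ovules, had 0.345, 0.422, 0.323 and 1.45 CPM at day 2, against 0.139, 0.0713, 1.04 and 0.58 CPM at day 1 (0.48, SE 0.66, adjusted p = 0.835). The groups overlapped for both genes. The highest SPL sample of each day was the sample with the high tapetum sum, day 2 replicate 4 and day 1 replicate 3, and without day 2 replicate 4 the sign of the SPL change turned (-0.31). The part of these 2 samples in the spread was not tested.

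A trio of genes that act in the shoot before flowers form fell at day 2. Of 24 tested genes of floral transition and inflorescence identity 3 fell and 1 rose (all genes: 0.415% falls), with a median log2 fold change of -0.12. SVP (AT2G22540, chr2:9579647-9583901), a MADS repressor of flowering and of early organ identity genes, had 46.2, 45.2, 45.8 and 44.5 CPM at day 2, against 70, 67, 66.2 and 63.8 CPM at day 1. The spread within a day was far smaller than the gap between the days, and the log2 fold change was -0.55 (SE 0.08, adjusted p = 0.000225). AGL24 (AT4G24540), its close relative, had 51.3, 49, 52.3 and 51.5 CPM at day 2, against 67, 63.6, 68.2 and 70.8 CPM at day 1 (-0.4, SE 0.06, adjusted p = 0.000968). FD (AT4G35900), the bZIP partner of florigen at the shoot tip, had 60.6, 63.1, 67.5 and 62.8 CPM at day 2, against 88.6, 87.9, 86.4 and 76.5 CPM at day 1 (-0.42, SE 0.09, adjusted p = 0.0137). All 3 were lower in every day 2 sample.

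The gene of that list that rose was TEM1 (AT1G25560), an inhibitor of flowering that acts on the florigen gene, with 43.2, 42.3, 33.2 and 32.5 CPM at day 2, against 21.8, 22.3, 24.5 and 19.6 CPM at day 1 (0.78, SE 0.2, adjusted p = 0.0449). Its call rested on nearly every sample: without any 1 of day 2 replicates 1, 2 and 4 or of the 4 day 1 samples the adjusted p was 0.0528 to 0.148, and it was also lost under library totals. FD was no longer called without day 2 replicate 1 or day 1 replicate 1 or 2 (0.055 to 0.0666). SOC1 (-0.34, adjusted p = 0.123), FUL (-0.05, adjusted p = 0.843), TFL1 (0.06, adjusted p = 0.898) and SPL9 (-0.21, adjusted p = 0.527), further genes of phase change and inflorescence identity, were not called. MAF4 (AT5G65070), of the FLC group of flowering repressors and among the largest falls at low level, averaged 0.7 ± 0.22 CPM at day 2 and 1.74 ± 0.52 CPM at day 1 (-1.31, SE 0.29, adjusted p = 0.0164), and was no longer called without replicate 1 or 2 of either day (0.0542 to 0.0875).

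**Figure D2:**
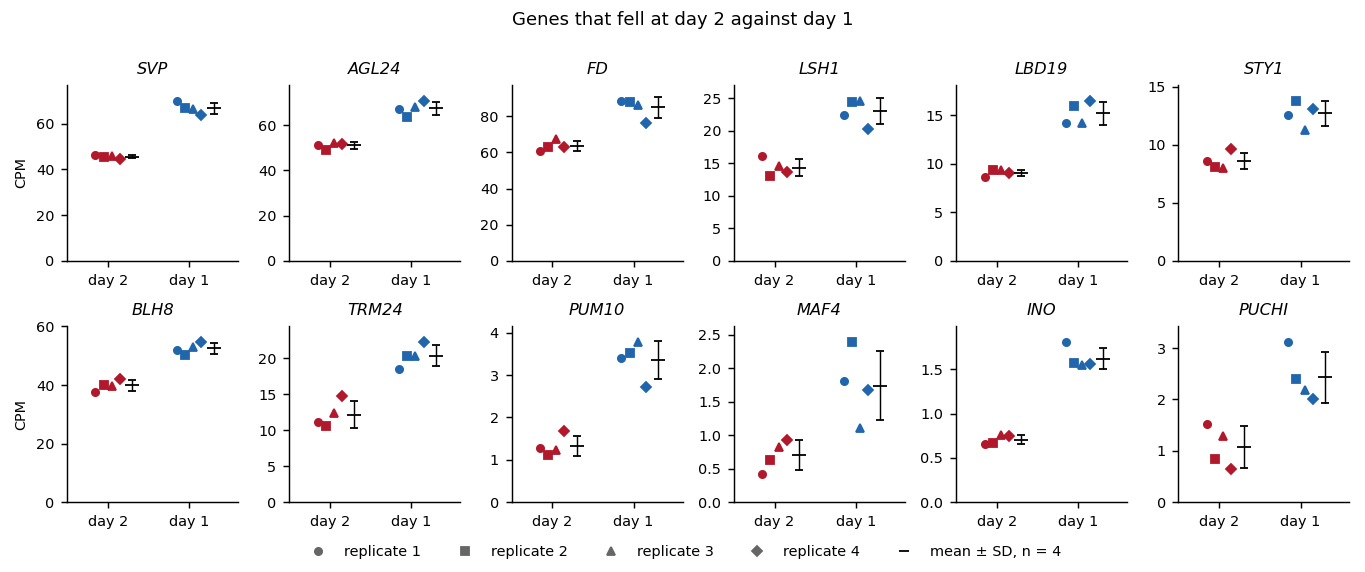
CPM of 12 genes that fell, in each sample of day 2 (red, left) and day 1 (blue, right); marker shapes are replicates and black bars are mean ± SD (n = 4). The days do not overlap for any of the 12, which the naming rule required of LBD19, TRM24, PUM10 and MAF4. For their level SVP and AGL24 vary least within day 2 and PUCHI and MAF4 most.

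Among meristem genes the changes were few. Of 22 tested stem cell and homeobox genes 2 rose and 1 fell (all genes: 1.49% rises and 0.415% falls). WOX3 (AT2G28610), a homeobox gene of organ margins, had 10, 9.7, 8.87 and 12.4 CPM at day 2, against 3.78, 3.92, 5.72 and 5.26 CPM at day 1 (1.13, SE 0.16, adjusted p = 0.000213). ATH1 (AT4G32980), a BELL homeobox gene, averaged 42.1 ± 3.6 CPM at day 2 and 33.1 ± 1.2 CPM at day 1 (0.35, SE 0.08, adjusted p = 0.0241). BLH8 (AT2G27990), a BELL gene of inflorescence meristems, had 37.6, 40, 39.8 and 42.2 CPM at day 2, against 52.1, 50.4, 52.9 and 54.7 CPM at day 1 (-0.4, SE 0.08, adjusted p = 0.00881). The stem cell genes WUS (4.1 ± 0.68 CPM at day 2 and 6.38 ± 1.1 CPM at day 1, adjusted p = 0.134), CLV3 (1.12 ± 0.27 CPM at day 2 and 1.15 ± 0.11 CPM at day 1, adjusted p = 0.974) and STM (135 ± 5.2 CPM at day 2 and 155 ± 11 CPM at day 1, adjusted p = 0.29) were not called. ATH1 was no longer called without day 2 replicate 2 or 3 or day 1 replicate 3 or 4 (0.0509 to 0.073) and under library totals.

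Organ boundary genes were split. Of 15 tested members 2 rose and 1 fell (all genes: 1.49% rises and 0.415% falls). LAS (AT1G55580), a GRAS gene of axils, averaged 9.41 ± 0.88 CPM at day 2 and 7.29 ± 0.39 CPM at day 1 (0.37, adjusted p = 0.0255), and ATH1 is the other rise. LSH1 (AT5G28490), of the ALOG family, had 16.1, 13.1, 14.5 and 13.6 CPM at day 2, against 22.4, 24.4, 24.6 and 20.3 CPM at day 1 (-0.68, SE 0.11, adjusted p = 0.00118). It was the lower in all 4 day 2 samples. LAS was no longer called without day 2 replicate 1 or 4 or day 1 replicate 1, 2 or 4 (0.0549 to 0.0937).

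Genes of organ polarity rose in part. Of 23 tested members 3 rose and 1 fell (all genes: 1.49% rises and 0.415% falls), with a median log2 fold change of 0.02. FIL (AT2G45190, chr2:18628252-18630779), a YABBY gene of the lower organ side, had 176, 171, 224 and 224 CPM at day 2, against 116, 121, 121 and 122 CPM at day 1 (0.73, SE 0.09, adjusted p = 4.85e-05). YAB3 (AT4G00180), which acts with FIL, had 62.3, 54.6, 65.4 and 66.6 CPM at day 2, against 31.8, 34.5, 36.7 and 36 CPM at day 1 (0.84, SE 0.09, adjusted p = 6.36e-06). Replicates 3 and 4 were the highest day 2 samples of both genes, and the lowest day 2 sample was still well above day 1. PHV (AT1G30490), a homeobox gene of the upper side, averaged 143 ± 12 CPM at day 2 and 113 ± 3.1 CPM at day 1 (0.34, adjusted p = 0.0166), a call lost under library totals. INO (AT1G23420), a YABBY gene known from the outer ovule integument, went the other way at low level, with 0.652, 0.667, 0.754 and 0.744 CPM at day 2, against 1.81, 1.57, 1.55 and 1.56 CPM at day 1 (-1.2, SE 0.27, adjusted p = 0.0204). Its call was lost without day 2 replicate 1 or 2 or day 1 replicate 1, 2 or 4 (0.0509 to 0.0784).

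Among 17 tested style and carpel genes there were 2 rises and 3 falls (all genes: 1.49% rises and 0.415% falls). NGA1 (AT2G46870), a B3 factor of style development, had 6.67, 5.48, 5.78 and 7.83 CPM at day 2, against 2.78, 2.6, 3.52 and 4.06 CPM at day 1 (0.99, SE 0.16, adjusted p = 0.00123). Its relative NGA2 rose by 0.74 (adjusted p = 0.016). STY1 (AT3G51060), of the SHI/STY family that also acts in the style, had 8.63, 8.12, 8.04 and 9.6 CPM at day 2, against 12.6, 13.8, 11.3 and 13.1 CPM at day 1 (-0.56, SE 0.1, adjusted p = 0.00435). SRS5 of the same family fell by 0.45 (adjusted p = 0.00564), and BEL1, an ovule homeobox gene, fell by 0.69 (adjusted p = 0.0372). The samples of the days did not overlap for NGA1 and STY1. With batch 1 alone STY1 (adjusted p = 0.0671), NGA2 (0.234) and BEL1 (0.368) were not called. NGA2 was no longer called without day 2 replicate 4 or day 1 replicate 1, 2 or 4 (0.0577 to 0.0724), and BEL1 without day 2 replicate 1, 2 or 4 or any day 1 sample (0.0659 to 0.128).

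Early anther genes had 3 rises among 14 tested members (all genes: 1.49%). AG and JAG are described above, and AGL15 (AT5G13790), a MADS gene known from embryos and young tissue, had 9.09, 8.29, 7.9 and 8.82 CPM at day 2, against 3.16, 3.00, 3.42 and 3.85 CPM at day 1 (1.34, SE 0.16, adjusted p = 4.85e-05). DMC1 (AT3G22880), the meiotic recombinase, fell by 0.5 (adjusted p = 0.0131), with 9.52 ± 1.2 CPM at day 2 and 13.5 ± 0.46 CPM at day 1, and was no longer called without day 2 replicate 2 or day 1 replicate 1 or 3 (0.0502 to 0.0713). None of 13 tested tapetum and later anther genes was called, with none at an unadjusted p under 0.05 (all genes: 12.6%) and none by DESeq2. Their median change ranged from -1.35 to 2.27 on leaving out single samples, beside the 2 samples that stood apart in this list.

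Calls among growth and auxin genes were few. Of 28 tested growth genes 1 rose (all genes: 1.49%). GRF8 (AT4G24150), a growth-regulating factor, rose to 14.1 ± 2.6 CPM at day 2, against 8.93 ± 1.1 CPM at day 1 (0.65, SE 0.13, adjusted p = 0.00814). Of 22 tested organ founder and auxin genes 1 rose and 1 fell (all genes: 1.49% rises and 0.415% falls). YUC1 (AT4G32540), an auxin synthesis enzyme, had 9.24, 11.2, 8.83 and 10.8 CPM at day 2, against 5.52, 6.06, 5.97 and 6.24 CPM at day 1 (0.75, SE 0.11, adjusted p = 0.000556). PUCHI (AT5G18560), an ERF gene that suppresses bracts, had 1.53, 0.843, 1.29 and 0.638 CPM at day 2, against 3.12, 2.39, 2.19 and 2.00 CPM at day 1 (-1.17, SE 0.3, adjusted p = 0.0412). GH3.2 (AT4G37390), which conjugates auxin and was the 1 call among 15 tested early auxin response genes, averaged 38.2 ± 10 CPM at day 2 and 18.2 ± 2 CPM at day 1 (1.07, adjusted p = 0.00353). The PUCHI call was lost without day 2 replicate 2, 3 or 4 or any day 1 sample (0.0503 to 0.177).

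Cytokinin genes gave 2 rises and 1 fall of 21 tested (all genes: 1.49% rises and 0.415% falls), with a median of -0.18. LOG3 (AT2G37210), an enzyme that releases active cytokinin, had 4.1, 4.43, 3.81 and 5.35 CPM at day 2, against 1.18, 1.5, 1.4 and 2.39 CPM at day 1 (1.45, SE 0.2, adjusted p = 0.000174). LOG5 (AT4G35190) of the same family averaged 124 ± 6.5 CPM at day 2 and 89.5 ± 4.8 CPM at day 1 (0.48, adjusted p = 0.037). ARR16, a type-A response regulator that dampens cytokinin signalling, fell by 0.88 (adjusted p = 0.0274). The LOG5 call was lost without day 2 replicate 1, 2 or 4 or any day 1 sample (0.0554 to 0.104) and under library totals, and that of ARR16 without day 2 replicate 2, 3 or 4 or day 1 replicate 1 or 2 (0.0513 to 0.114).

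Gibberellin genes gave 3 rises and no fall of 19 tested (all genes: 1.49% rises and 0.415% falls). GID1B (AT3G63010), a gibberellin receptor, had 35.6, 30.9, 27.5 and 34.6 CPM at day 2, against 16.9, 17.7, 19.4 and 19.8 CPM at day 1 (0.8, SE 0.13, adjusted p = 0.000968). GA2OX2 (AT1G30040), an enzyme that inactivates gibberellin, had 43.6, 47.8, 30.7 and 35.4 CPM at day 2, against 21.8, 21.9, 27.8 and 22 CPM at day 1 (0.75, SE 0.14, adjusted p = 0.00429). Both genes were higher in every day 2 sample. A further inactivating enzyme, GA2OX8, rose by 2.01 (SE 0.45, adjusted p = 0.0188) at a level of 0.445 ± 0.088 CPM at day 2 and 0.107 ± 0.078 CPM at day 1, and was no longer called without day 2 replicate 1 or day 1 replicate 1, 2 or 4 (0.0631 to 0.0814).

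Epidermal and cuticle genes gave 3 rises and no fall of 29 tested (all genes: 1.49% rises and 0.415% falls). FOP1 (AT5G53390, chr5:21656734-21659367), a wax ester synthase family gene needed for petals to slide out of the bud, had 10.4, 10, 14.3 and 13.2 CPM at day 2, against 3.54, 3.46, 3.06 and 3.85 CPM at day 1. The days did not overlap, with replicates 3 and 4 the higher samples of day 2 (log2 1.78, SE 0.17, adjusted p = 1.3e-06). PDF1 (AT2G42840), a marker of the outer cell layer, had 1580, 1430, 1740 and 1740 CPM at day 2, against 1190, 1280, 1240 and 1280 CPM at day 1 (0.38, SE 0.08, adjusted p = 0.00932). KCS10, a fatty acid elongase that keeps organs from fusing, rose by 0.32 (adjusted p = 0.0385), a call lost without day 2 replicate 1, 3 or 4 or day 1 replicate 1, 2 or 3 (0.0577 to 0.126). Among 13 tested trichome genes TRY, an inhibitor of trichome fate, rose by 0.68 (adjusted p = 0.0151), a call lost without day 2 replicate 4 (0.0583).

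Stomatal lineage genes leaned down. Of 16 tested members 15 had a log2 fold change below 0 (51.8% of all tested genes did), with a median of -0.25, and 1 fell (all genes: 0.415%). SCRM2 (AT1G12860), a bHLH partner of the stomatal fate factors, averaged 19.3 ± 2.3 CPM at day 2 and 27.6 ± 1.5 CPM at day 1 (-0.51, SE 0.12, adjusted p = 0.0317), a call lost without day 2 replicate 1, 2 or 4 or any day 1 sample (0.0509 to 0.13). Nuclear photosynthesis genes were below 0 in 32 of 32 tested members, with a median of -0.21 that stayed between -0.26 and -0.11 on leaving out single samples. None was called by edgeR, 5 had an unadjusted p under 0.05 (all genes: 12.6%) and DESeq2 called 1. Their summed level was 16900, 13800, 17600 and 14500 CPM at day 2 and 16900, 17500, 21100 and 16500 CPM at day 1, so the days overlapped.

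**Figure D3:**
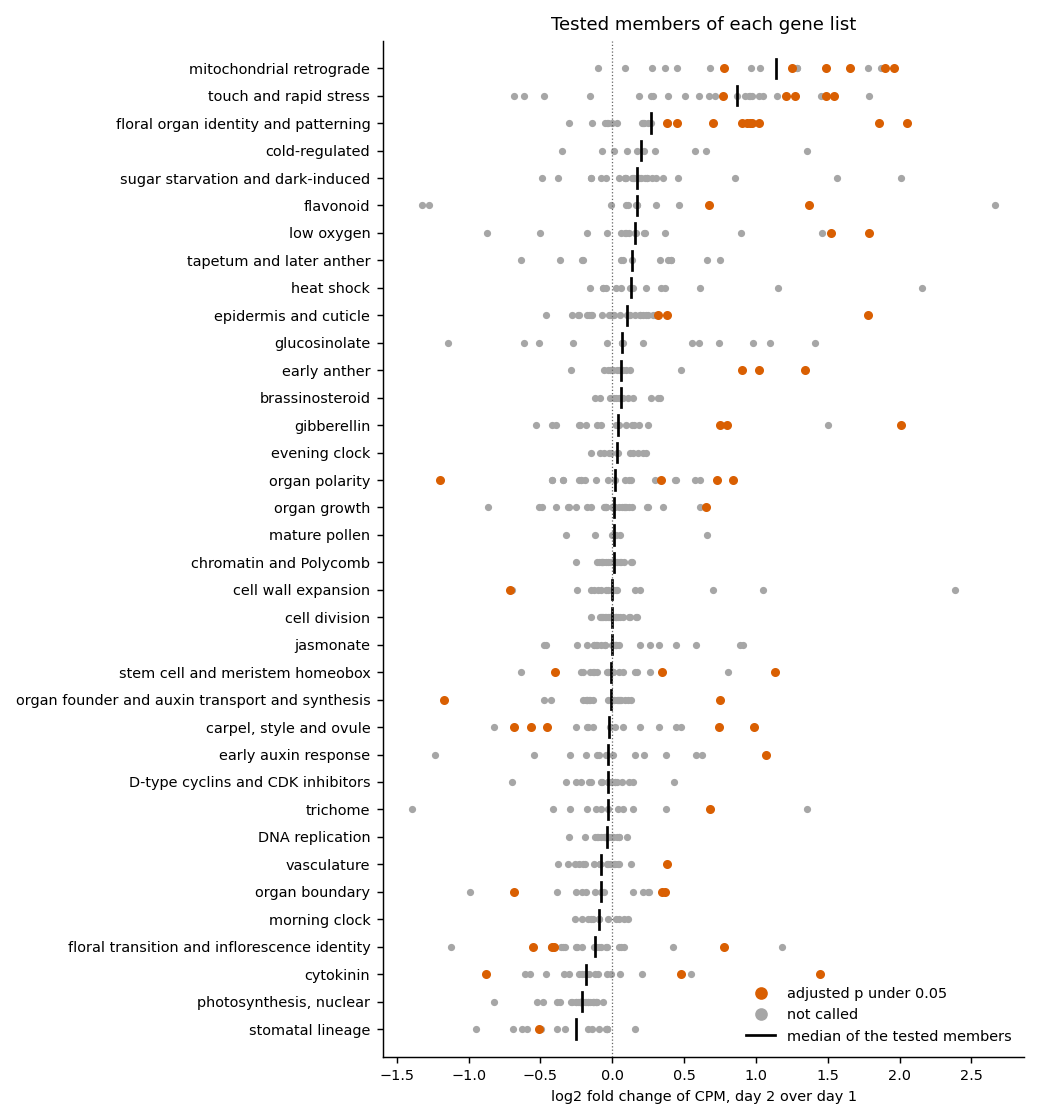
Log2 fold change of CPM, day 2 over day 1, for every tested member of 36 gene lists, ordered by the list median (black bar); orange points have an adjusted p under 0.05. The mitochondrial retrograde and the touch and rapid stress lists have the highest medians, 1.14 and 0.87, the floral organ identity list holds the most calls, 10, and the stomatal and photosynthesis lists have the lowest medians, -0.25 and -0.21.

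Genes of the mitochondrial retrograde response, which nuclei express when mitochondrial electron transport is disturbed, had the highest median of the 36 lists, 1.14, and 6 rises of 18 tested (all genes: 1.49%). The list median was already 1.15 from day 0 to day 1, and it was -0.59 from day 2 to day 3. NDB2 (AT4G05020, chr4:2572427-2576599), an outer NAD(P)H dehydrogenase of mitochondria, had 36, 26.9, 23 and 26.9 CPM at day 2, against 16.5, 18.1, 15.5 and 15.5 CPM at day 1 (0.78, SE 0.13, adjusted p = 0.00105). OM66 (AT3G50930), an ATPase of the outer membrane, had 40.6, 42.9, 24.1 and 28.8 CPM at day 2, against 8.71, 9.49, 15.8 and 9.32 CPM at day 1 (1.65, SE 0.33, adjusted p = 0.0073). AOX1A (AT3G22370, chr3:7906521-7908746), the alternative oxidase that takes electrons past the cytochrome chain, had 277, 336, 188 and 226 CPM at day 2, against 113, 117, 77.3 and 123 CPM at day 1 (1.25, SE 0.31, adjusted p = 0.0387). In these 3 genes the days did not overlap, day 2 replicate 3 was the lowest day 2 sample and replicate 1 or 2 was the highest. SOT12, a sulfotransferase, had 474, 497, 204 and 313 CPM at day 2, against 123, 132, 110 and 165 CPM at day 1 (1.49, adjusted p = 0.038). UGT74E2, a glycosyltransferase, had 147, 115, 40.6 and 77.8 CPM at day 2, against 21, 22, 28.8 and 26.1 CPM at day 1 (1.96, adjusted p = 0.0188), and DTX1, a MATE transporter, rose by 1.9 (adjusted p = 0.038). From day 0 to day 1 these genes had also risen, at an adjusted p under 0.05. The log2 changes of that step were 0.56 (NDB2), 1.25 (OM66), 2.75 (UGT74E2), 2.76 (SOT12), 3.25 (DTX1) and 3.36 (AOX1A).

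Summed over the list, the level was 1570, 1620, 862 and 1130 CPM at day 2 and 620, 627, 543 and 697 CPM at day 1, so the days did not overlap but day 2 spread widely. Without single samples 2 to 8 members of the list rose. The calls of AOX1A and SOT12 were lost without day 2 replicate 1, 2 or 4 or any day 1 sample (adjusted p 0.0565 to 0.119 for AOX1A and 0.054 to 0.123 for SOT12), that of DTX1 without day 2 replicate 1 or 2 or any day 1 sample (0.0653 to 0.191), and that of UGT74E2 without day 2 replicate 1 or 2 or day 1 replicate 1, 2 or 4 (0.0515 to 0.0844). NDB2 and OM66 held without any single sample.

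Genes of touch and rapid stress, which respond within minutes to wounding, cold or handling, had a median of 0.87, and 5 of 27 tested rose (all genes: 1.49%). ZAT12 (AT5G59820, chr5:24102814-24103794), a zinc finger gene of many stresses, had 16.8, 23.8, 14.7 and 13 CPM at day 2, against 6.35, 6.63, 6.04 and 4.39 CPM at day 1 (1.54, SE 0.22, adjusted p = 0.000234). ZAT6 (AT5G04340), its relative, had 5.67, 6.25, 4.49 and 4.89 CPM at day 2, against 2.33, 2.71, 2.12 and 1.63 CPM at day 1 (1.27, SE 0.21, adjusted p = 0.0015). SZF2 (AT2G40140), a CCCH zinc finger gene, had 91.5, 98.9, 87 and 72.1 CPM at day 2, against 56.2, 61.6, 47.5 and 39.4 CPM at day 1 (0.77, SE 0.15, adjusted p = 0.00542). Replicate 2 was the highest sample of all 3 genes on both days. The defence and stress factors WRKY40 (1.49, adjusted p = 0.0226) and WRKY33 (1.21, adjusted p = 0.0414) also rose, calls lost without day 2 replicate 1 or 2 or day 1 replicate 1, 2 or 4 for both, and without day 2 replicate 4 or day 1 replicate 3 for WRKY33 (0.0737 to 0.0815 for WRKY40 and 0.06 to 0.143 for WRKY33). WRKY33 also lost its call under library totals. The summed level of the list was 649, 825, 608 and 566 CPM at day 2 and 307, 343, 360 and 256 CPM at day 1, and 438, 468, 245 and 403 CPM at day 0.

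Of 17 tested low oxygen genes 2 rose (all genes: 1.49%). PDC1 (AT4G33070), pyruvate decarboxylase of fermentation, had 15.8, 13.8, 3.81 and 8.26 CPM at day 2, against 3.3, 3.03, 2.27 and 3.48 CPM at day 1 (1.79, SE 0.41, adjusted p = 0.0219). HRE2 (AT2G47520), a group VII ERF factor, had 77.6, 87.5, 42.6 and 54.9 CPM at day 2, against 24.8, 23.1, 17.9 and 25.4 CPM at day 1 (1.53, SE 0.36, adjusted p = 0.0283). Day 2 replicate 3 was again the lowest of its day, and both calls were lost without day 2 replicate 1 or 2 or any day 1 sample (0.0516 to 0.099). The summed level of the list overlapped between the days, with 1540, 1290, 1150 and 1280 CPM at day 2 and 1110, 1100, 1230 and 1160 CPM at day 1.

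**Figure D4:**
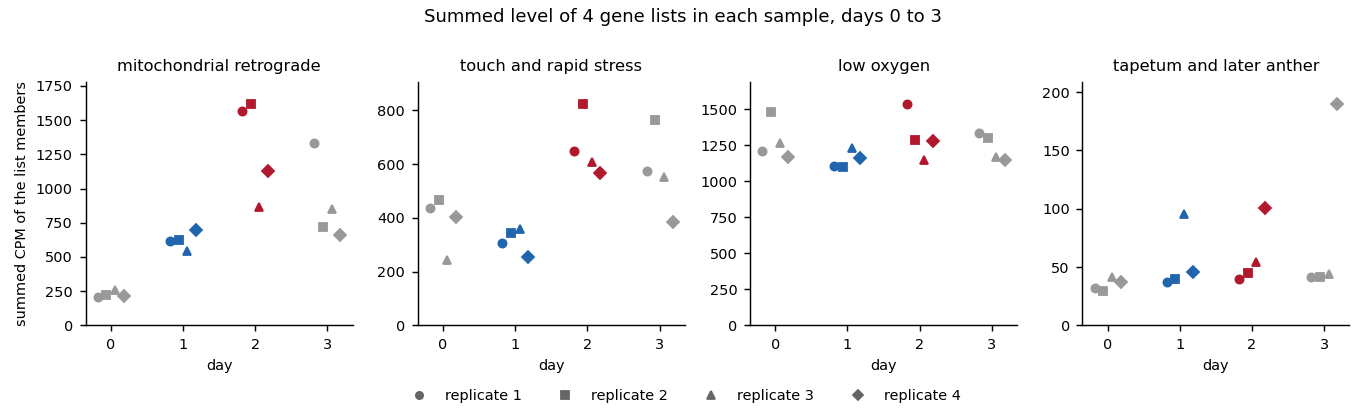
Summed CPM of 4 gene lists in each sample of days 0 to 3 (day 1 blue, day 2 red, other days grey), with marker shapes for replicates. The mitochondrial list stands at 862 to 1620 CPM at day 2 and 543 to 697 CPM at day 1, the touch list at 566 to 825 CPM at day 2 and 256 to 360 CPM at day 1, the low oxygen list overlaps, and the tapetum list is high in day 2 replicate 4 and day 1 replicate 3.

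The 300 bases before the annotated start of these genes are shown for 3 of the rises, from the 2 lists with the highest medians. The sequences are read 5′ to 3′ in the direction of the gene from the TAIR10.1 genome of RefSeq. Capitals mark the mitochondrial dysfunction motif, known as a site of the NAC factors of the retrograde response, in NDB2, and the core TTGAC of the W-box, known as a site of WRKY factors, in AOX1A and ZAT12, on either strand. Only TTGAC was searched, without the base that follows it, so a marked core need not lie in a full W-box. In ZAT12 a forward and a reverse core lie side by side, each followed by G.
NDB2 (chr4:2572127-2572426, plus strand): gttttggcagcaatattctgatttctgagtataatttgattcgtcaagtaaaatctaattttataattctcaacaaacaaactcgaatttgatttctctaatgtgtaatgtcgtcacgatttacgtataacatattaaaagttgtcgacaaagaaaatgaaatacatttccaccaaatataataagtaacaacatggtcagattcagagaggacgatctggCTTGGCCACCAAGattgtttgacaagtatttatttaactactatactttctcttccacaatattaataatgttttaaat
AOX1A (chr3:7906221-7906520, plus strand): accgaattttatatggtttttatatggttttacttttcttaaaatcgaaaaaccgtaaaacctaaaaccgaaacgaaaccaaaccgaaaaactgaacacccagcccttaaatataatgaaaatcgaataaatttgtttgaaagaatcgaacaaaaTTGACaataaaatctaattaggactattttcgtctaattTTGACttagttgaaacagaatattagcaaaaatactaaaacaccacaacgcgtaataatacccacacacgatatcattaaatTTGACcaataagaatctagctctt
ZAT12 (chr5:24102514-24102813, plus strand): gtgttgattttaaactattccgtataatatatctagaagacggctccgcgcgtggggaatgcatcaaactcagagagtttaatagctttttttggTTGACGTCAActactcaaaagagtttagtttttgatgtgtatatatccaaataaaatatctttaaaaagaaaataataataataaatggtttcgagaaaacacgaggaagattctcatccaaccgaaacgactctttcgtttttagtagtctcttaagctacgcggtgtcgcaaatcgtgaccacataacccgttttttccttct

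Over the windows of 19664 tested genes, 1.75% held the mitochondrial motif and 49.7% the W-box core. The mitochondrial motif was in 5 of the 18 tested members of the mitochondrial list and in 1 of its 6 rises, NDB2. The W-box core was in 12 of the 18 tested members of the mitochondrial list, among them all 6 of these rises. It was also in 4 of the 5 touch and rapid stress rises, ZAT6 being the exception. A CArG box, the known site of MADS proteins, was in none of the windows of the 10 floral organ identity rises and in 3.03% of all windows. The W-box core counts are of TTGAC alone and are not counts of full W-boxes. These windows end at the annotated gene start and say nothing of sites farther away or inside the gene.

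UGT73B4 (AT2G15490, chr2:6761635-6763500), a glycosyltransferase of stress responses and among the largest rises with a symbol at a mean of at least 5 CPM, had 26.9, 11, 5.42 and 9.5 CPM at day 2, against 1.49, 1.96, 2.37 and 2.32 CPM at day 1 (2.69, SE 0.47, adjusted p = 0.00214). Replicate 1 was the highest day 2 sample and the lowest of day 1. Its near copy UGT73B5 overlaps it in the annotation and had 16.1, 9.56, 5.1 and 5.49 CPM at day 2, against 2.05, 2.46, 3.2 and 2.29 CPM at day 1 (1.85, adjusted p = 0.0384), so how reads were split between the 2 is uncertain. CYP81D8 (AT4G37370), a cytochrome P450, had 71.9, 57.2, 27.8 and 39.7 CPM at day 2, against 10.4, 14.5, 16.6 and 13.3 CPM at day 1 (1.84, SE 0.37, adjusted p = 0.00821). AGC2-1 (AT3G25250), a kinase of oxidative stress signalling, had 13.8, 16.3, 7.04 and 10.1 CPM at day 2, against 3.82, 3.07, 3.06 and 3.08 CPM at day 1 (1.86, SE 0.37, adjusted p = 0.00814). GSTF7, a glutathione transferase, had 59.5, 16.8, 13.4 and 19.1 CPM at day 2, against 5.73, 6.56, 10.2 and 9.25 CPM at day 1 (1.77, adjusted p = 0.0406). In all 5 genes day 2 replicate 3 was the lowest day 2 sample, as in the mitochondrial list. PHT3;2, a mitochondrial phosphate carrier, rose by 2.14 (adjusted p = 0.0205).

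The calls of PHT3;2 (adjusted p 0.0547 to 0.0881) and GSTF7 (0.0653 to 0.273) were lost without day 2 replicate 1 or day 1 replicate 1, 2 or 3, for PHT3;2 also without day 2 replicate 2 and for GSTF7 also without day 1 replicate 4, and the call of UGT73B5 without day 2 replicate 1 or 2 or any day 1 sample (0.0651 to 0.189). Without day 2 replicate 1 the log2 fold change was 1.05 for GSTF7 and 2.08 for UGT73B4, which kept its call. Further large rises did not depend on a single sample. CYP709B2 (AT2G46950), a cytochrome P450, had 12.9, 17.5, 13.5 and 13.9 CPM at day 2, against 2.74, 4.64, 4.17 and 5.55 CPM at day 1 (1.76, SE 0.17, adjusted p = 2.88e-06). REM22 (AT3G17010), a B3 domain factor of reproductive meristems, had 17.4, 16, 11.6 and 21.2 CPM at day 2, against 2.67, 3.14, 6.08 and 8.13 CPM at day 1 (1.73, SE 0.26, adjusted p = 0.000537). Both genes were higher in every day 2 sample, which the rule that named them required, and held without any single sample.

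Among genes with a symbol, at a mean of 1 to 5 CPM and with no overlap between the days, the largest rises were RBE and SUP, described above, with ABCG35, ACS2, B120 and ZCF37. ABCG35 (AT1G15210), an ABC transporter, had 1.84, 1.83, 1.36 and 1.95 CPM at day 2, against 0.312, 0.178, 0.575 and 0.472 CPM at day 1 (2.17, SE 0.28, adjusted p = 0.000125). ACS2 (AT1G01480), an enzyme of ethylene synthesis, had 10.3, 4.95, 2.62 and 5.21 CPM at day 2, against 0.903, 1.21, 1.62 and 1.38 CPM at day 1 (2.17, SE 0.48, adjusted p = 0.017). The first was even within day 2, and the second ranged widely with replicate 1 on top. B120, a lectin receptor kinase, rose by 1.73 (adjusted p = 0.0351) and ZCF37 by 1.66 (adjusted p = 0.00313). ACS2 was no longer called without day 2 replicate 1 or day 1 replicate 1 or 2 (0.0642 to 0.0887), and B120 without day 2 replicate 1, 2 or 4 or day 1 replicate 1, 2 or 4 (0.0552 to 0.136).

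Falls were smaller than the rises. LBD19 (AT2G45410), a LOB domain gene, had 8.63, 9.31, 9.33 and 9.04 CPM at day 2, against 14.2, 16, 14.2 and 16.5 CPM at day 1 (-0.75, SE 0.12, adjusted p = 0.00138). NADP-ME3 (AT5G25880), a malic enzyme, had 8.47, 12.5, 13 and 10.7 CPM at day 2, against 18.9, 20.1, 16.9 and 19.7 CPM at day 1 (-0.76, SE 0.14, adjusted p = 0.00561). TRM24 (AT5G51850), of a family that binds the cortical microtubule protein TON1, had 11.1, 10.6, 12.4 and 14.8 CPM at day 2, against 18.6, 20.3, 20.3 and 22.3 CPM at day 1 (-0.73, SE 0.14, adjusted p = 0.00628). The days did not overlap for any of the 3, which the rule that named them required. PUM10 (AT1G35750), a Pumilio RNA-binding protein gene, had 1.27, 1.12, 1.22 and 1.67 CPM at day 2, against 3.4, 3.53, 3.78 and 2.72 CPM at day 1 (-1.34, SE 0.21, adjusted p = 0.000633). WIP5, a zinc finger gene, had 2.13 ± 0.16 CPM at day 2 and 4.48 ± 0.36 CPM at day 1 (-1.07, adjusted p = 0.0129), a call lost without day 1 replicate 1 or 2 (0.051 and 0.0515). MCT2 (AT5G07930) averaged 0.916 ± 0.15 CPM at day 2 and 1.98 ± 0.15 CPM at day 1 (-1.11, adjusted p = 0.0219), a call lost without day 2 replicate 2 or 4 or day 1 replicate 1, 2 or 4 (0.0602 to 0.0889). ABCE1 (-0.5, adjusted p = 0.00489), TRM25 (-0.48, adjusted p = 0.0171) and iqd21 (-0.55, adjusted p = 0.0493) were further falls. TRM25 was no longer called without day 2 replicate 3 or any day 1 sample (0.0503 to 0.0748), and iqd21 without day 2 replicate 1, 2 or 4 or any day 1 sample (0.0612 to 0.185).

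Single calls appeared in further lists. MYB11 (1.37, adjusted p = 0.0217) and MYB12 (0.68, adjusted p = 0.0351), regulators of flavonol synthesis, were the 2 rises of 13 tested flavonoid genes, SEOR1, a sieve element protein gene, was the 1 rise (0.38, adjusted p = 0.0241) of 19 vascular genes, and EXPA14 was the 1 fall (-0.71, adjusted p = 0.03) of 20 cell wall expansion genes (all genes: 1.49% rises and 0.415% falls). Each of these 4 calls was lost without some single samples: MYB11 without day 2 replicate 2 or 3 or any day 1 sample (0.051 to 0.0734), MYB12 without day 2 replicate 2 or 3 or day 1 replicate 2, 3 or 4 (0.0608 to 0.113) and under library totals, SEOR1 without day 2 replicate 1 or day 1 replicate 1, 2 or 4 (0.0788 to 0.0877), and EXPA14 without day 2 replicate 1, 2 or 4 or day 1 replicate 1 or 2 (0.0863 to 0.153).

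In 15 of the 36 lists edgeR called no member. Over all tested genes 12.6% had an unadjusted p under 0.05. Cell division (22 tested, 1 at an unadjusted p under 0.05), DNA replication (21 tested, 1) and D-type cyclins with CDK inhibitors (18 tested, 4) had medians between -0.04 and 0 and no DESeq2 call. Morning and evening clock genes (12 tested each) and Polycomb and chromatin genes (21 tested) had none at an unadjusted p under 0.05 and no DESeq2 call. Jasmonate genes (24 tested) also had none, with single members between -0.48 and 0.91. Brassinosteroid genes (12 tested) had 3 at an unadjusted p under 0.05 and 1 DESeq2 call. Heat shock (14 tested, 1), cold-regulated (10 tested, 0), sugar starvation (26 tested, 4), glucosinolate (15 tested, 2) and mature pollen genes (6 tested, 1) had no DESeq2 call. A p that misses the threshold does not show that these genes were equal on both days.

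To ask which genes moved differently between day 1 and day 2 than they had between day 0 and day 1, the difference between the 2 steps was tested in the same fit. Both steps contain the day 1 samples. The step differed for 18 genes (0.0912%), with 4 higher (0.0203%) and 14 lower (0.0709%) in the later step, and 1745 (8.84%) had an unadjusted p under 0.05. DESeq2 called 94 of 20803 (0.452%), 48 higher (0.231%) and 46 lower (0.221%). AP3 rose by 0.96 in the day 2 step and by 2.97 in the day 1 step, a difference of -2.01 (SE 0.2, adjusted p = 2.17e-05). JAG rose by 0.9 in the day 2 step and 2.78 in the day 1 step (difference -1.88, SE 0.3, adjusted p = 0.00441). ABCB15 (AT3G28345), an ABC transporter gene, rose by 0.72 in the day 2 step and 2.64 in the day 1 step (difference -1.92, SE 0.28, adjusted p = 0.00208), and ATH1 by 0.35 in the day 2 step and 1.29 in the day 1 step (difference -0.94, SE 0.14, adjusted p = 0.00285). These 4 thus rose less on the log scale in the later step.

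The reverse held for YAB3 and BCAT-1. YAB3 rose by 0.84 in the day 2 step after a change of -0.25 in the day 1 step (difference 1.09, SE 0.16, adjusted p = 0.00208), and BCAT-1 (AT1G10060), a branched-chain amino acid transaminase gene, rose by 0.9 in the day 2 step after -0.36 in the day 1 step (difference 1.26, SE 0.2, adjusted p = 0.00418). BCAT-1 averaged 26.6 CPM at day 0, 20.8 CPM at day 1 and 38.8 CPM at day 2. SEP3, with 0.94 in the day 2 step and 0.9 in the day 1 step, showed no called difference (adjusted p = 0.964). Of these 6 step differences, that of AP3 kept its call under every alternative run. That of JAG was no longer called without day 1 replicate 2 (-1.71, adjusted p = 0.0516). With a replicate number left out on all days, the call was lost for JAG without 2 or 4 (adjusted p = 0.542 and 0.0925), for ABCB15 and YAB3 without 2 (0.07 each), for ATH1 without 1, 2 or 4 (0.07 to 0.0796) and for BCAT-1 without 1, 2 or 3 (0.0574 to 0.113). ABCB15 also lost it with batch 1 alone (0.0555). Over all genes, leaving out day 1 replicate 1 left 2 genes higher and 9 lower, and leaving out day 1 replicate 2 left 2 higher and 6 lower. Between the day 2 step and the day 3 step no gene differed by edgeR (0.0% of 19747), while 1013 (5.13%) had an unadjusted p under 0.05 and DESeq2 called 20 (0.0922%), of which 19 (0.0876%) were higher and 1 (0.00461%) lower in the day 2 step.

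**Figure D5:**
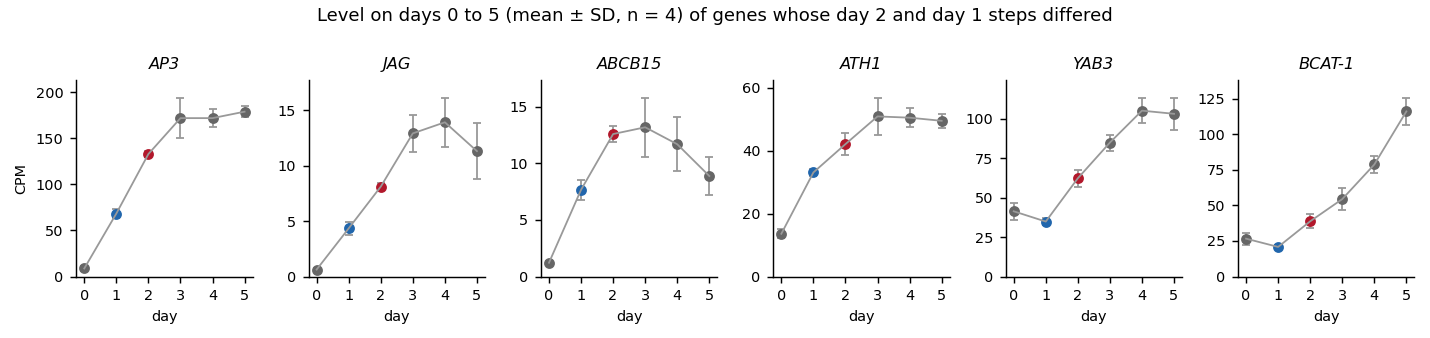
Mean CPM ± SD (n = 4) on days 0 to 5 of 6 genes whose change between day 1 (blue) and day 2 (red) differed from that between day 0 and day 1. AP3, JAG, ABCB15 and ATH1 are lowest at day 0 and step up by more, on the log scale, to day 1 than to day 2, while YAB3 and BCAT-1 are lowest at day 1.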

How the data were processed

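PolyA RNA of inflorescences was sequenced from 4 biological replicates a day over 6 days in 2 batches, per the labels. The deposited table gives expected counts, rounded to integers, with a column for each run. FastQC, Trim Galore, Salmon 0.12.0 and DESeq2 are named with TAIR10 in the submitters' processing notes; the notes assign them no roles or settings. Counts of a sample's 2 runs were added, leaving n = 4 a day. Of 23069 genes, 22915 matched the TAIR10.1 gene table, the source of symbols and coordinates. Genes passing filterByExpr (minimum count 10, minimum total 15) were tested with edgeR 4.0.16 on R 4.3.3 (quasi-likelihood F-test, TMM, a day term fitted on the 24 samples, 18 residual df), with Benjamini-Hochberg adjustment over 19747 genes and a call under 0.05. CPM use effective library sizes, and SE is the size of the log2 change over the square root of F.

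The 36 lists, the core floral genes and the alternatives were chosen with earlier results of these data known. Named genes are the core genes, the 12 largest rises and falls at a mean of at least 5 CPM and the 6 largest at 1 to 5 CPM (called, days not overlapping, with a symbol), up to 6 called members per list by smallest adjusted p, called members that move against their list, and step differences by smallest adjusted p. Tests compare samples labelled as biological replicates. On simulated counts the test recovered 82% of 1.5-fold and 89% of 2-fold changes, with 10 false among 181 calls (19644 genes). Each gene was drawn independently at its fitted spread, with 200 genes of over 10 expected counts changed and all others equal on both days. Shifts that many genes of a sample share were not simulated, so these rates may not hold for the real samples. Alternatives were DESeq2 1.42.0, RLE size factors, unscaled totals, unfiltered genes, genes at 10 CPM or more, a replicate block, each batch alone, the 2 days alone, glmTreat at 1.5-fold, and each sample and replicate left out.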

Additional observations from a re-analysis of the deposited data

Results flagged for a closer look

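Of 198 groups of 4 samples (99 named genes on 2 days), 11 held a sample far from the other 3 by Dixon's criterion at the 95% level, where chance gives about 5%. At day 2 these were GSTF7 in replicate 1 (59.5 CPM), WRKY33 in replicate 2 (100 CPM) and SPL in replicate 4 (1.45 CPM). At day 1 they were INO (1.81 CPM) and AGC2-1 (3.82 CPM) in replicate 1, and GA2OX2 (27.8 CPM), SEOR1 (44.1 CPM), OM66 (15.8 CPM), NGA2 (3.06 CPM), GH3.2 (21.3 CPM) and MCT2 (1.76 CPM) in replicate 3. Day 1 replicate 3, the day 1 sample with the high tapetum sum, holds 6 of the 11. Since 11 of 198 lies near the chance share, this is a description, and a link between the flags and the tapetum sum was not tested.

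Of the 18 genes whose day 2 step differed from their day 1 step, 6 are named here with the log2 change of the day 2 step minus that of the day 1 step: BCAT-1 (1.26), YAB3 (1.09), JAG (-1.88), ABCB15 (-1.92), AP3 (-2.01) and ATH1 (-0.94).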

How the results depend on the processing

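The counts of calls moved most. In place of 294 rises and 82 falls, DESeq2 gave 443 and 147, the 2 days alone 470 and 125, RLE size factors 302 and 80, library totals 250 and 125, no filter 298 and 71, batch 1 alone 193 and 47, batch 2 alone 243 and 65, a mean of at least 10 CPM 148 and 44, and a fold threshold of 1.5 gave 27 and 0. Leaving out single samples or replicate numbers gave 76 to 326 rises and 6 to 76 falls. For the step against day 1 (4 higher, 14 lower), DESeq2 gave 48 and 46, a mean of at least 10 CPM 2 and 9, and leave-one-out 0 to 7 higher and 2 to 15 lower. For the step against day 3 (0 and 0), DESeq2 gave 19 and 1, batch 1 alone 2 higher, and leave-one-out 0 to 4 higher. Replicate numbers were not taken as pairing the samples, since same-numbered samples of the 2 days correlated at 0.064, 0.24, -0.075 and 0.098; the fit with the replicate block gave 282 rises and 88 falls, and 1 gene higher against the day 3 step, and AOX1A (adjusted p = 0.0595), SOT12 (0.0604), TEM1 (0.0548) and MYB12 (0.0529) were not called in it. Differently numbered samples correlated at -0.392 (day 2 replicate 4 with day 1 replicate 1) to 0.411 (day 2 replicate 4 with day 1 replicate 3). The pair at 0.411 holds the samples with the high tapetum sums. Of 85 called named genes, 46 kept the call without any single sample. With batch 1 or batch 2 alone, 16 and 13 single-gene values lost their call. In batch 1 these were GSTF7, SCRM2, INO, WIP5, DTX1, WRKY33, ARR16, MYB12, DMC1, STY1, NGA2, B120, BEL1, TRY, TRM25 and the ABCB15 step difference. In batch 2 they were TEM1, LAS, UGT73B5, ARR16, iqd21, MYB11, GA2OX8, ATH1, LOG5, SEP1, PUCHI, EXPA14 and MAF4. Signs turned for uncalled genes only: CLV3 (reported at -0.03) to 0.17 in batch 2 alone and, without single samples or replicates, a range of -0.14 to 0.14, with SPL at -0.31 to 1.49, TFL1 at -0.02 to 0.13 and FUL at -0.09 to 0. The cause was not tested. Depth limits the genes near 1 CPM, where a sample holds few counts.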

Other observations

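The called genes with the smallest adjusted p that the naming rule passed over, most of them without a symbol, were listed after their values were seen. AT1G02190 (chr1:415074-418027), annotated as a fatty acid hydroxylase superfamily gene, had the smallest adjusted p of all genes. It had 75.2, 78.9, 91.4 and 105 CPM at day 2, against 24.3, 26.8, 26.8 and 32.7 CPM at day 1 (log2 1.67, SE 0.12, adjusted p = 4.03e-08), and its means went on to 146, 204 and 222 CPM on days 3 to 5. AT1G13230, a leucine-rich repeat protein gene, averaged 8.14 ± 1.1 CPM at day 2 and 2.29 ± 0.50 CPM at day 1 (1.83, adjusted p = 1.9e-07). AT4G15160, a lipid-transfer protein family gene, averaged 3.84 ± 0.42 CPM at day 2 and 0.632 ± 0.11 CPM at day 1 (2.59, adjusted p = 3.37e-07), and was highest at day 3 with 8.45 CPM.

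Transcription factors stood among them. ABI5 (AT2G36270), a bZIP factor of abscisic acid responses, had 14.6, 11.7, 10.5 and 13.9 CPM at day 2, against 3.75, 3.6, 4.46 and 5.51 CPM at day 1 (1.55, SE 0.14, adjusted p = 1.26e-06). BLH2 (AT4G36870), a BELL homeobox gene, had 13.5, 10.9, 12.7 and 13.9 CPM at day 2, against 5.45, 4.57, 5.83 and 4.83 CPM at day 1 (1.3, SE 0.16, adjusted p = 5.62e-05), while its level at day 0 was 5.07 ± 1.8 CPM. AT5G57720, a B3 domain gene, averaged 17.7 ± 2.0 CPM at day 2 and 6.95 ± 1.8 CPM at day 1 (1.35, adjusted p = 5.06e-05). None of these 6 genes lost its call when a single sample was left out.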
